A study of Mus musculus with 2 samples.

Results

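The Iroquois genes Irx1 to Irx6 and the Fto gene were followed in a list of differentially methylated regions. The list compares 2 whole-genome bisulfite libraries of cells sorted from mouse adipose tissue and put through adipogenic culture. The 7 genes were chosen by name with earlier results of these data known, and their regions were selected by position. A region belonged to a gene when it overlapped the RefSeq gene body extended by 50 kb on both sides. This gave 59 of the 34139 deposited regions, 50 at the 4 genes on chromosome 8 (Fto, Irx3, Irx5 and Irx6) and 9 at the 3 genes on chromosome 13 (Irx1, Irx2 and Irx4). No region was within 50 kb of more than 1 of these genes.

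The labels give 1 library of CD137+ cells and 1 of PDGFRα+ cells, which the sample title calls CD140. Both came from adipose tissue of C57BL/6 mice, both were treated with dexamethasone (DEX, a synthetic glucocorticoid), and both had been sorted magnetically out of SAT or VAT (subcutaneous or visceral adipose tissue) and put through adipogenic culture, per the labels' protocols. The labels give no depot per library, no age or sex, and no number of animals, and there was no library without DEX. Each deposited region carries a signed score that the list does not define. The score is no methylation level or percent, and no level per library stands beside it. The order CD140 then CD137 in the list's title would make a negative score lower methylation in the PDGFRα+ library, but that order of subtraction is not stated. The text therefore keeps to negative and positive scores. Read depth is unknown. Each group is 1 library, so no spread between replicates exists and no difference was tested. The libraries could not be checked against markers of the sorted cells, because the list holds no expression or methylation level.

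Iroquois proteins are homeodomain transcription factors of the TALE class that pattern the early embryo and, later, heart, limb, lung and nervous system. In mammals their genes lie in 2 clusters, Irx1, Irx2 and Irx4 in one and Irx3, Irx5 and Irx6 in the other, with long noncoding stretches between the genes. Fto neighbours Irx3 and encodes an RNA demethylase that acts on N6-methyladenosine. In humans, obesity-associated variants inside FTO introns lie in sequence that contacts IRX3 and IRX5, and in adipocyte precursors raised IRX3 and IRX5 restrain the thermogenic, beige programme. DNA methylation at CG dinucleotides of such developmental genes can differ between progenitors of different embryonic or depot origin.

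Regions within 20 kb of the Iroquois genes were all negative, and those at Fto were of both signs. In the Irx genes or within 20 kb of them lay 31 regions, 31 of 31 negative, with scores from -855 to -18.9. Of these, Irx5 had 13, Irx3 9, Irx2 5, Irx1 3, Irx6 1 and Irx4 0. The nearest positive region stood 20.5 kb from Irx3, just beyond that cut. Between 20 and 50 kb from these genes 5 of 11 regions were negative, and at Fto 10 of 17. In the whole list 67.4% of regions were negative, 66.9% of those in a protein-coding gene or within 20 kb, and 68.1% of those 20 to 50 kb from the nearest one. The 7 genes were chosen knowing that Irx2, Irx3 and Irx5 carried negative regions, so these counts describe the loci and support no further statement.

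Promoter sequences show where the regions stood relative to start sites. A RefSeq table (GRCm38.p6, the assembly that mm10 names) holds windows from 250 bases before to 50 bases after a start for 4 of the 7 genes (Fto, Irx3, Irx2 and Irx4). None of these 4 windows (0) was overlapped by a region, and 1.21% of all 32851 windows in the table were. The nearest region was 1.01 kb from the window of Irx3, 1.72 kb from that of Irx2, 17.5 kb from that of Fto and 143 kb from that of Irx4. One window at these loci was overlapped, that of Irx3os, a long noncoding RNA transcribed away from Irx3 on the other strand. The deposited region there (chr8:91802916-91803363, score -273) covered the first 278 bases of the window and left the last 22 outside. It ended on the C of the last CG printed. Irx3os is shown because its start lies in a region, and Irx3 and Irx2 because strong regions lie near their starts without reaching them. Capitals mark each CG, the dinucleotide that carries most DNA methylation in mammals, searched as the letters CG (the same on both strands). The Irx3os run is chr8:91803086-91803385 on the plus strand, with 6 CG, 5 of them whole inside the region. The Irx3 run is chr8:91801655-91801904 on the minus strand, with 13 CG, and the Irx2 run is chr13:72628570-72628819 on the plus strand, with 19 CG. All are written 5′ to 3′, the last 2 up to the base before the start.
Irx3os: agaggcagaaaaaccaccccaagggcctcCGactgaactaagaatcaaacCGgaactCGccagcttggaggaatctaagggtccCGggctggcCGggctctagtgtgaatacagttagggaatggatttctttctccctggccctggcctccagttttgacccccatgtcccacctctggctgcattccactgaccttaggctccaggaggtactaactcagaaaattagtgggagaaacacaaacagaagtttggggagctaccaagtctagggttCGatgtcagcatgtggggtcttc
Irx3: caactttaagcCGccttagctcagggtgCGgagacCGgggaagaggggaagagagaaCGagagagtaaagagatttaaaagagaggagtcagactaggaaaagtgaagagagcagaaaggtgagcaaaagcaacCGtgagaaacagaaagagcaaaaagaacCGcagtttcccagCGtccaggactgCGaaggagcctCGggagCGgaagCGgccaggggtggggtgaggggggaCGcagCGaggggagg
Irx2: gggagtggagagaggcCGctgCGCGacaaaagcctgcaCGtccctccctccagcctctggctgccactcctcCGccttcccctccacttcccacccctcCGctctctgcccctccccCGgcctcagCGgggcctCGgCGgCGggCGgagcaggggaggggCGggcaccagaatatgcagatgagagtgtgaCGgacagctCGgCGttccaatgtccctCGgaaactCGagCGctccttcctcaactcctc

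Of all 32851 windows, 94.6% held at least 1 CG and the median was 7. As many CG as in the full Irx3os window (6) were found in 56.4% of windows, as many as at Irx3 (14) in 36.3%, and as many as at Irx2 (25) in 18.4%. The window overlapped by a region was thus the one with the fewest CG of the 3. The full Fto window held 23 CG and the Irx4 window 31, which 21.5% and 10.6% of windows reached.

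Regions lay within 50 kb of 6 of the 7 genes, within 5 kb of 6 and inside 5. Over all 21887 protein-coding genes the shares were 68.5% within 50 kb, 35.1% within 5 kb and 28.9% inside the gene. With 50 kb on both sides, Fto had 17 regions, Irx5 15, Irx3 13, Irx2 6, Irx6 5, Irx1 3 and Irx4 0. The median protein-coding gene had 1 (quartiles 0 and 3). Counts as high as that of Irx5 were found at 193 genes and as high as that of Irx3 at 285. Fto is far longer (355 kb) than any Irx gene (3144 to 10034 bp). Irx6, Irx2 and Irx1 were nearer the bulk, with 2889, 1976 and 6793 genes reaching their counts. Irx3, Irx5 and Irx2 each had 5 or more regions within 5 kb, all negative, which held for 0.726% of protein-coding genes. That cut equals the count of Irx2, and these genes were known to carry negative regions, so the share only describes them.

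**Figure D1:**
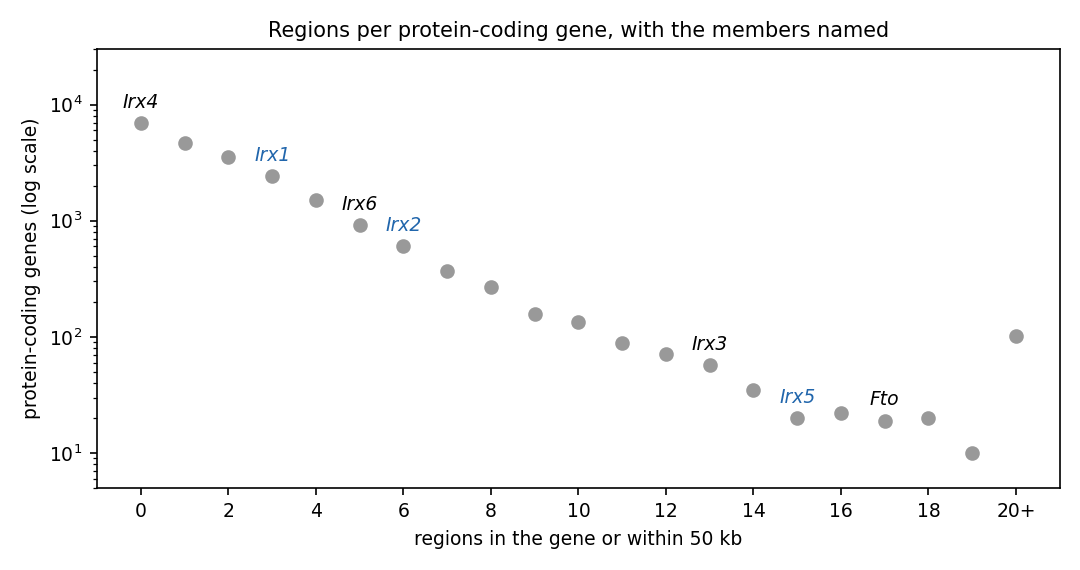
Number of protein-coding genes (y axis, log scale) for each count of regions in the gene or within 50 kb (x axis, 20 or more pooled at the right); each point is a count, and the 7 genes are named above the point of their own count, in blue where every region was negative. Irx3, Irx5 and Fto sit at 13, 15 and 17 regions, Irx1, Irx2 and Irx6 between 3 and 6, and Irx4 at 0.

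Irx5 held the run with the most regions among the 7 genes, and every region of it was negative. Its product, like that of Irx3, restrains thermogenic gene expression in adipocytes and also sets the repolarisation gradient of the heart wall. The gene (gene ID 54352) spans 92357796 to 92361456 of chromosome 8 (mm10), and all 15 of its regions were negative. Starting inside the gene, 12 regions followed one another with gaps of at most 5 kb over 9.72 kb (92360394 to 92370112) and covered 4286 bp, or 44.1%, of that stretch.

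The strongest of them was 1055 bp wide, lay 3.42 kb beyond the upper end (92364877 to 92365931) and scored -755, the 21st most negative of the list. Next came a region of 437 bp at 92363261 to 92363697 with a score of -541, and then one of 350 bp inside the gene (92360394 to 92360743) with -371. A 651 bp region at 92363763 to 92364413 scored -267 and a 458 bp region at 92366196 to 92366653 scored -197. Thus the high scores stood at the upper end of the gene and in the 6 kb beyond it, not at its lower end.

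Further members of the run scored between -144 and -103. The weakest were -41.5 inside the gene and -18.9 at 8.57 kb beyond it. Outside the run, Irx5 had regions of -40.1 at 14.7 kb above, and of -89.0 and -113 at 34.3 and 45.1 kb below the gene. Crnde is a long noncoding RNA gene transcribed divergently from the Irx5 promoter. Its upper end, where it starts, lies 1.68 kb below Irx5. No region overlapped Crnde or its promoter window (nearest 4.02 kb away).

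In all, 11 of the 15 regions at Irx5 had an absolute score of 100 or more, against 15.5% of the list. Joining regions by the same 5 kb gap, a distance chosen after the values were seen, gave 28502 runs over the whole list, 24223 of them a region standing alone. Only 10 runs held as many regions as that at Irx5, the longest having 16. Of the 16 runs with 10 or more regions, 7 were wholly negative, 4 wholly positive and 5 mixed.

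Irx3, whose product restrains browning of adipocytes and shapes hypothalamic and heart development, carried a looser negative run with positive regions farther out. The gene (gene ID 16373) spans 91798511 to 91801654 on the minus strand, so its upper end is its start. A run of 9 regions, all negative, reached over 14.3 kb from 91793878 to 91808192, and covered 12.4% of it. Over the list 19 runs held as many.

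Inside the gene, on the side of its 3′ end, were regions of 361 bp (91798598 to 91798958, score -104), 55 bp (score -33.4) and 124 bp (91799687 to 91799810, score -135). They began 1.84 to 2.70 kb downstream of the start. Beyond the start lay the region at the Irx3os promoter (448 bp, score -273), 1.26 kb from Irx3. Others inside Irx3os scored -41.2, -144 (243 bp), -111 (207 bp), -23.7 and, at 20.2 kb, -36.6. The last of these also overlapped the noncoding gene Gm39223. A region in Irx3os near Irx3 cannot be assigned to either gene.

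On the other side of Irx3, toward Fto, a region 4.45 kb away scored -32.7, and the next 3 were positive. They stood 20.5 kb (140 bp, score 115), 47.0 kb (score 29.3) and 47.4 kb (score 56.6) from the gene. Irx3 thus had 10 negative and 3 positive regions, 7 of 7 negative within 5 kb, and its positive regions lay only on the Fto side.

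Irx6, whose product is known from retinal interneurons, had few and weak regions. The gene (gene ID 64379, 92674289 to 92680956) held 1 region of 70 bp with a score of -45.3 at 92678768 to 92678837. A region of -48.4 lay 20.2 kb below. Above it 3 positive regions of 78 to 98 bp scored 29.2, 33.6 and 50.8, at 40.5 to 43.0 kb. None of the 5 regions reached an absolute score of 100, and the sign changed between the gene and its far flank.

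Fto, the demethylase gene, carried regions of both signs along its length. It spans 91313367 to 91668433 of chromosome 8 (gene ID 26383, plus strand) and held 12 regions, 7 negative and 5 positive, with 5 more in the flanks. Its density inside the gene was 33.8 per Mb, against 16.7 along chromosome 8 and 14.0 over the autosomes, both counted from the first to the last region.

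The signs came in blocks, which were not compared with other genes. A positive region of 59 bp stood 17.7 kb into the gene (score 28.5), and none followed until 131 kb. From 131 to 209 kb were 5 negative regions. The first was 416 bp wide (91444725 to 91445140) and scored -128, and a neighbour of 240 bp scored -37.8. The next scored -30.3, -79.5 and -77.3. From 284 to 340 kb came 4 positive regions, with scores of 94.1, 67.3, 147 (256 bp, 91625115 to 91625370) and 81.3, and the last 2 in the gene scored -23.7 and -28.0.

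The positive block began at 80.0% of the gene's length and so lay toward its Irx3 end. The human obesity variants map to the early introns of FTO. Exons and introns could not be told apart here, and the mouse counterpart of the human interval was not located. In the flanks, a region 21.1 kb below Fto scored 60.9 and lay inside Rpgrip1l, a cilium gene that shares its promoter region with Fto, and in the noncoding gene Gm36163. Above Fto the regions scored -41.4, 26.7, -52.6 and -109.

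Compared with the Irx genes beside it, Fto had a median absolute score of 60.9, below that of Irx5 (133) and above those of Irx3 (56.6) and Irx6 (45.3). In the list it was 49.4. Scores of 100 or more in size were found at 3 of 17 regions of Fto, 11 of 15 of Irx5, 6 of 13 of Irx3 and 0 of 5 of Irx6. The strongest were 147 and -128 at Fto, and -755 and -541 near Irx5.

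**Figure D2:**
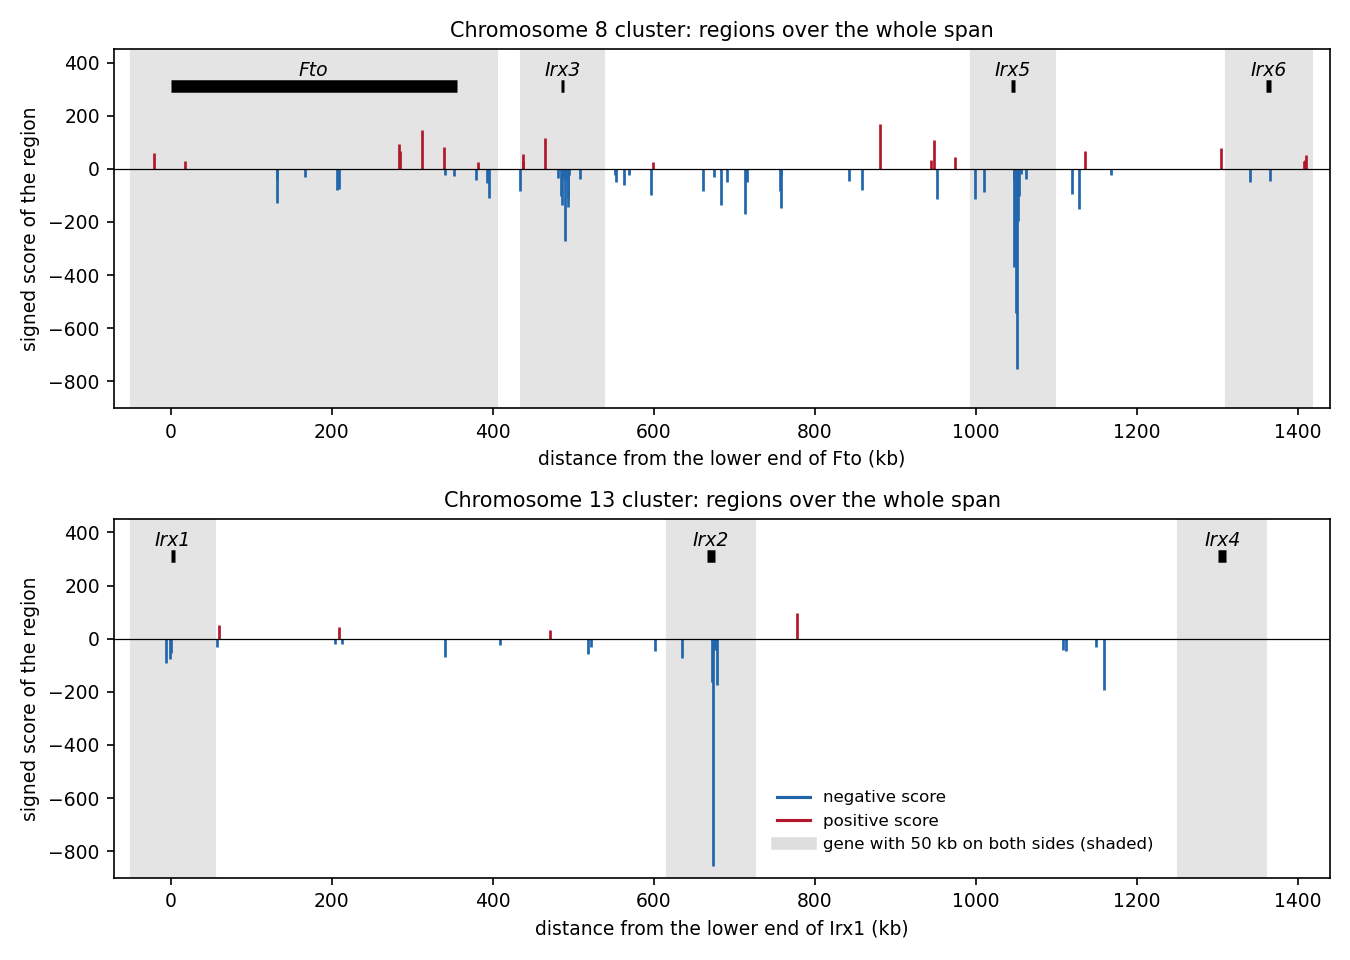
Signed score (y axis) of every region against distance in kb from the lower end of Fto (upper panel) or Irx1 (lower panel); blue lines are negative and red lines positive regions, black bars are genes and grey bands the genes with 50 kb on both sides. Tall negative lines stand at Irx5, Irx2 and Irx3, Fto has lines of both signs, and the Irx4 band holds no line.

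Irx2 held the most negative score of both clusters. Its product takes part in heart, limb and neural patterning. The gene (gene ID 16372) spans 72624430 to 72634196 of chromosome 13, and the promoter table places a start on the plus strand inside it. A region of 661 bp at 72631331 to 72631991, 2.51 kb downstream of that start, scored -855, the 14th most negative score of the list and the 23rd by size. A region of 155 bp before it (72630587 to 72630741) scored -162. Beyond the upper end of the gene stood regions of -43.2, -36.9 and -173 (229 bp, 72636278 to 72636506), at 0.590 to 2.08 kb.

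These 5 regions formed a run of 5.92 kb, with 22.5% of it covered, and 99 runs of the list held as many regions. The sixth region, -72.5 at 30.7 kb below, overlapped the noncoding gene Gm38580. No region overlapped Gm20554, the noncoding gene that crosses the lower end of Irx2. As at Irx5, the strong regions of Irx2 lay in the upper part of the gene and just beyond it.

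Irx1, which acts in lung, kidney and digit development, had 3 regions, all negative, and all on 1 side. The gene (gene ID 16371) spans 71958232 to 71963723, and the regions stood below it at 0.146 kb (106 bp, score -54.7), 0.647 kb (177 bp, score -78.1) and 6.13 kb (132 bp, score -89.7). None was inside the gene or reached an absolute score of 100.

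Irx4, the ventricle-restricted member of the family in the heart, had no region. The gene (gene ID 50916) spans 73259589 to 73269622, and the nearest regions were 142 kb below (286 bp, score -194) and 414 kb above (155 bp, with a positive score). The empty stretch of 566 kb was longer than the median gap of 31.6 kb between neighbouring autosomal regions, and 395 of 33547 gaps (1.18%) were as long. That share counts gaps, and a gene falls in a long gap more readily than in a short one. It therefore does not tell how rare such a stretch is around a gene. The stretch held 8 protein-coding genes, among them Tert, the telomerase reverse transcriptase gene, and Slc6a3, the dopamine transporter gene. The list does not say whether a stretch without regions was covered by reads.

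**Figure D3:**
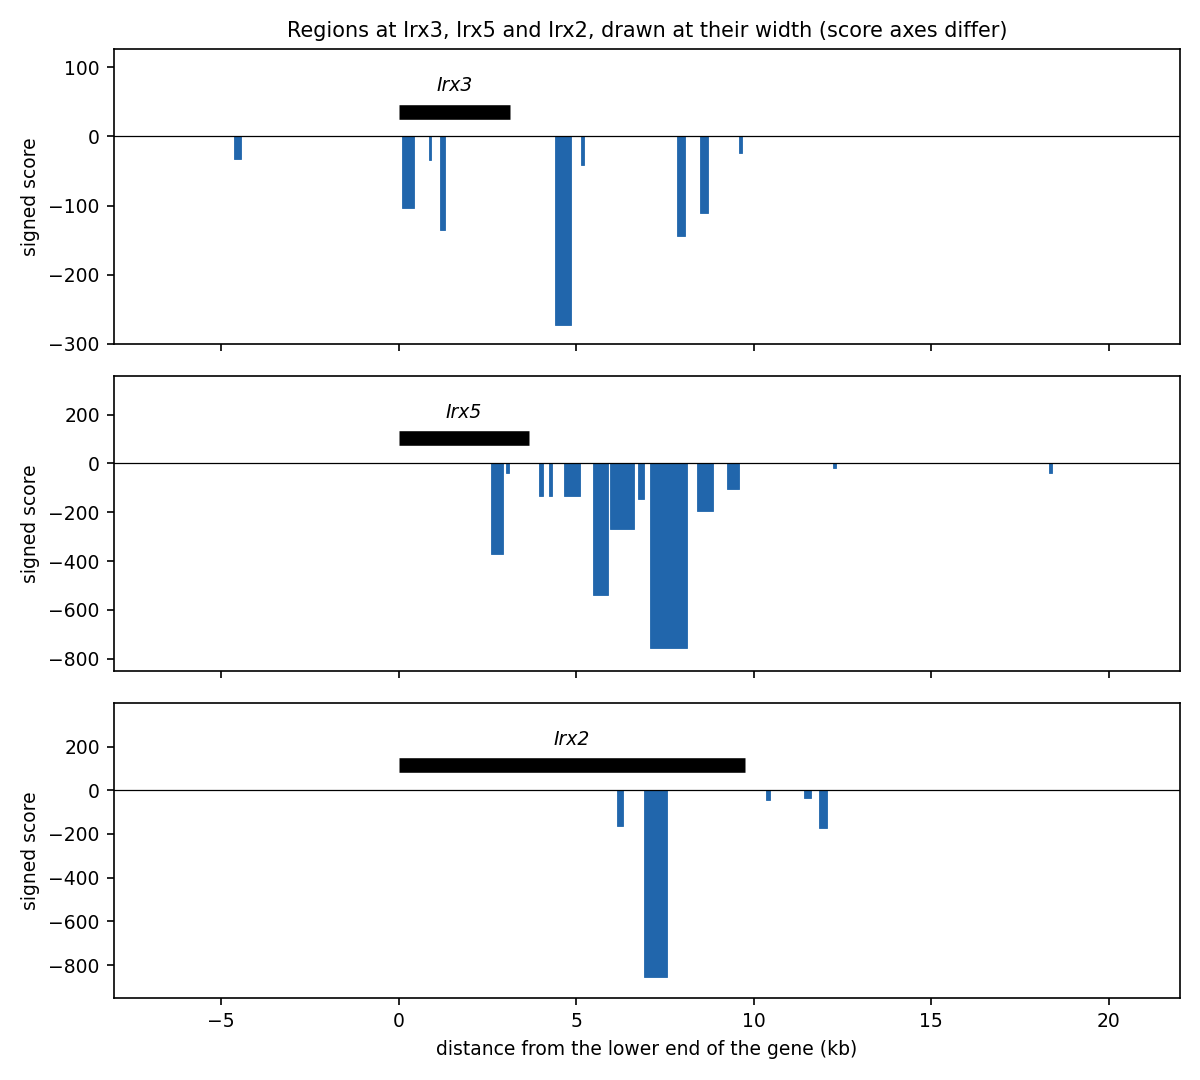
Signed score (y axis, a different range in each panel) of the regions around Irx3, Irx5 and Irx2 against distance in kb from the lower end of the gene; each blue bar is a negative region drawn at its width, and the black bar is the gene. Every bar is negative, the lowest at -273, -755 and -855, and at Irx5 the bars stand close together beyond the upper end of the gene.

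The clusters on chromosomes 8 and 13 differed in number of regions more than in their size. The 4 genes on chromosome 8 had 50 regions, or 65.1 per Mb of window, and the 3 on chromosome 13 had 9, or 27.7 per Mb. Without Fto the chromosome 8 value was 105 per Mb. Negative regions made up 74.0% of the 50 (37 regions, exact 95% binomial interval 59.7 to 85.4) and 100% of the 9 (66.4 to 100). The intervals overlap. They allow for counting error alone, and neighbouring regions are not independent.

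Without Fto the negative share on chromosome 8 was 81.8% (27 of 33, 64.5 to 93.0). Median absolute scores were 72.3 on chromosome 8 and 78.1 on chromosome 13, and 20 of 50 and 3 of 9 regions reached 100. Leaving out Fto, the chromosome 8 median was 103 and 17 of 33 regions reached 100, so the near-equal medians depended on including Fto. Of the 23 regions that reached 100 in size, 21 were negative, against 3550 of 5281 in the whole list. Irx5 held 11 of these negative regions, Irx3 5 and Irx2 3, the genes already known to carry negative regions. The exceptions were the region of 147 in Fto and that of 115 between Fto and Irx3.

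Irx3 and Irx1, Irx5 and Irx2, and Irx6 and Irx4 are usually taken as counterparts from the duplication of an ancestral cluster. Irx5 and Irx2 held the strongest scores of their clusters (-755 and -855) and Irx6 and Irx4 the fewest regions within 5 kb (1 and 0), while Irx3 and Irx1 had 7 and 2. With 3 pairs in 1 comparison of 2 libraries, this order is a description.

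**Figure D4:**
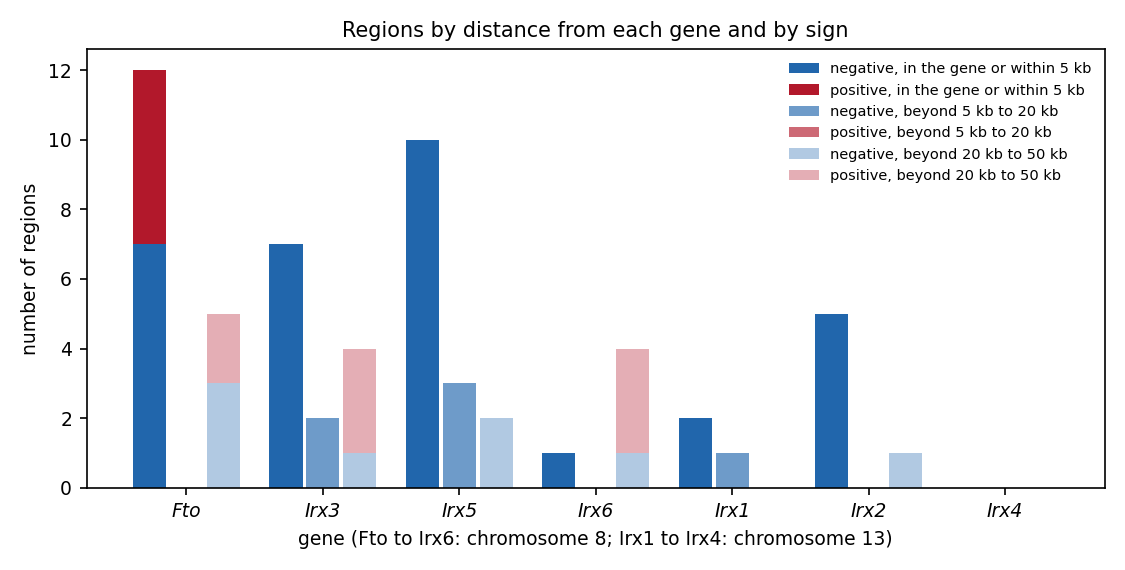
Number of regions (y axis) for each gene (x axis), in 3 distance classes shown as neighbouring bars from dark to light; blue is negative and red positive, stacked. Red appears for the Irx genes only in the class beyond 20 kb, at Irx3 and Irx6, and for Fto also inside the gene.

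Wide regions tend to carry large scores in this list, so scores were set beside widths. The median absolute score rose from 31.4 among regions of up to 75 bp to 166 among those above 500 and up to 1000 bp. Of the 59 regions at the 7 genes 22 (37.3%) lay above the upper quartile of their own width class, 12 of 33 at Irx3, Irx5 and Irx6, 4 of 9 on chromosome 13 and 6 of 17 at Fto. The Irx2 region of -855 stood at 1.29 per bp and the Irx5 regions of -541 and -755 at 1.24 and 0.716 per bp, against a list median of 0.430. Among the 59 regions, a narrow Irx5 region of 78 bp had the highest value, 1.70 per bp.

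**Figure D5:**
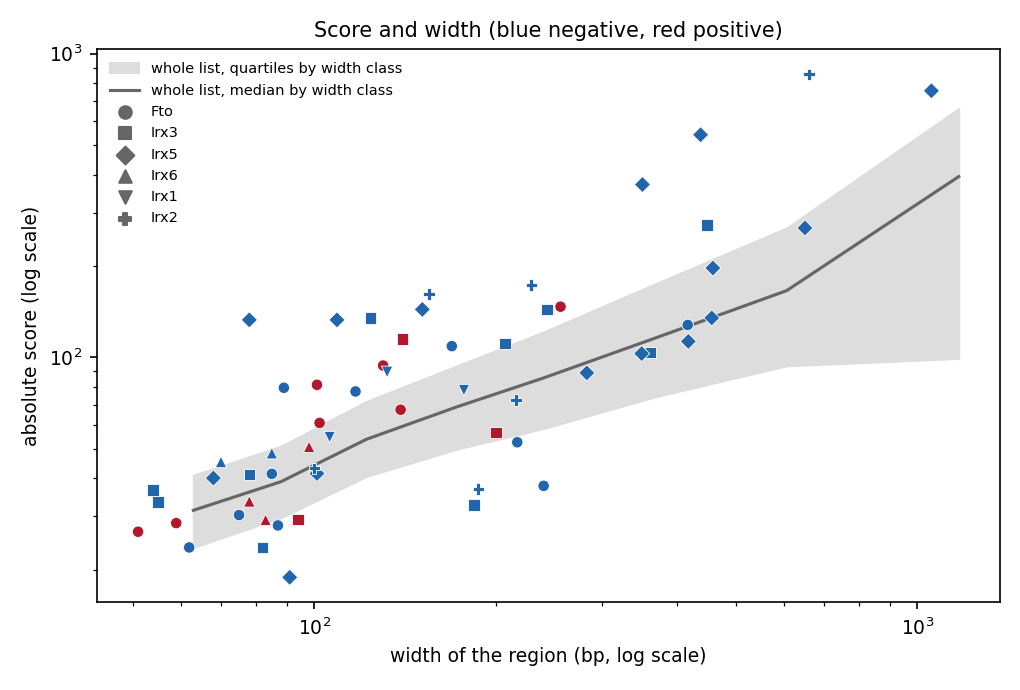
Absolute score against width in bp (both axes log scale) for the 59 regions, with 1 symbol per gene, blue for negative and red for positive; the grey line and band are the median and quartiles of the whole list by width class. Regions of Irx2 and Irx5 with scores of 371 to 855 in size lie above the band, while many of the narrow regions fall inside it.

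The stretches between the genes held further regions. From the Fto window to that of Irx6, 1468 kb of chromosome 8 had 78 regions (53.1 per Mb, 74.4% negative), and 1411 kb of chromosome 13 had 25 (17.7 per Mb, 84.0% negative, 21 of 25). Chromosome 13 as a whole had 15.1 per Mb. The stretch between the windows of Irx3 and Irx5 was the richest, with 22 regions in 456 kb (48.2 per Mb), 17 negative and 5 positive. Its strongest were -171 (92026515 to 92026711, in the noncoding gene Gm28516) and 168 (92194070 to 92194321).

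Signs ran in blocks here too. On chromosome 8, 15 negative regions in a row reached from 91793878 to 91910353 around Irx3, and 17 in a row from 92312274 to 92442328 around Irx5. Between Irx5 and Irx6 lay 5 regions, 3 negative. On chromosome 13 there were 11 between the windows of Irx1 and Irx2 (8 negative, none over 67.8 in size) and 5 between those of Irx2 and Irx4 (4 negative). The longest negative row there, of 9 regions, ended with the run at Irx2.

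At the edge of the 50 kb window, the regions just inside were those of 56.6 and 29.3 at 47.4 and 47.0 kb from Irx3, -113 at 45.1 kb from Irx5 and 50.8 at 43.0 kb from Irx6. Just outside stood -82.9 at 50.7 kb from Irx3, 54.8 at 51.5 kb and 78.3 at 55.7 kb from Irx6, and -32.1 at 52.4 kb from Irx1.

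Relatives of the Iroquois genes and partners of Fto were read from 3 lists. Some other TALE homeobox genes are described by gene. Meis1, which encodes a HOX cofactor, had 29 regions within 5 kb, all negative (strongest -268). Meis2 had 7, 6 of them negative (strongest -163), and Pknox2 had 3, 2 of them negative (strongest -226). Meis3 (-48.1) and Pknox1 (-46.0) had 1 negative region each, and Tgif2 had 2 (strongest -31.5). Mkx, a tendon regulator gene, had 2, both positive (strongest 45.4), and Tgif1 had 0. The median protein-coding gene had 0. These counts were not matched for gene length, and longer genes offer more room for regions.

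Of 18 genes of N6-methyladenosine in RNA, the mark that Fto removes, 12 had a region within 5 kb, against 35.1% of all protein-coding genes. The median was 1 region, against 0 over all. There were 16 regions, 13 of them negative, against 66.6% of all regions within 5 kb of a protein-coding gene. The strongest lay at Rbm15 (-97.7) and Mettl14 (-74.0), which belong to the methyltransferase complex, and at Ythdf3 (-93.5), a reader of the mark. Alkbh5, the other RNA demethylase gene, had 0.

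Of 6 genes tied to the Fto and Irx circuit of beige fat, 5 had a region within 5 kb, against the same 35.1% of all protein-coding genes. They had 75 regions, 59 of them negative, against 66.6% of all regions within 5 kb of a protein-coding gene. Prdm16 alone held 51 of the 75 and 46 of the 59, so the pooled share mostly describes that gene. Arid5b, whose product binds the FTO interval and represses IRX3 and IRX5 in humans, had 9 regions, 8 of them positive (strongest 141). A relation between the signs at Arid5b and at the Irx genes was not tested. Ppargc1a, a coactivator of thermogenic genes, had 11 of 13 negative (strongest -241), and Prdm16, a determinant of beige fat, 46 of 51 negative (strongest -627). Cidea had 1 region of -41.2 and Ucp1, the uncoupling protein gene, 0. Rpgrip1l had 1 region, of 60.9, the same that was counted below Fto. Gene length was not matched in these counts.

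Genes of the sorted antigens and of cell types were read the same way. Of 9 such genes 6 had a region within 5 kb, against 35.1% of all. Of their 18 regions 9 were negative, against 66.6% of all regions within 5 kb of a protein-coding gene. Pdgfra had 1 of each sign (strongest -137), and Tnfrsf9, which encodes CD137, had 0. Of the adipocyte genes, Adipoq had 1 of each sign (strongest -75.3), Fabp4 3 of 3 positive (strongest 55.6) and Plin1 1, positive (51.4). Wt1, a mesothelial gene, had 6 of 8 negative (strongest 463), and Pecam1, an endothelial gene, 1 of each sign (strongest 37.4). Ptprc and Msln had 0. Cell composition of the 2 libraries cannot be read from these values, and its part in the regions at the Irx genes was not tested.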

How the data were processed

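Genomic DNA was bisulfite-converted and sequenced, 1 library per group, per the labels' protocols. The authors deposited a list of 34139 regions with a signed score each and no header. Positions are in mm10, per the submitters' processing notes. How reads were aligned, which caller and thresholds made the regions, and the depth were not given in the sources used here, so the score only describes, ranks and filters regions within the list, and sequencing depth behind a region is unknown.

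Positions were read as BED and are printed counting from 1. This was checked on RefSeq promoter windows (GRCm38.p6), where 233 of 233 region starts and 268 of 268 ends fell on a base of a CG. Genes came from a RefSeq table of the same assembly, which gives neither exons nor, except through the promoter table, strand. Lower and upper end mean the ends with the smaller and larger coordinate. Regions overlapping a gene extended by 50 kb (5 kb for lists) were counted with Python 3.11.15, pandas 2.3.3 and scipy 1.17.1. Tested on simulated regions, these counts were wrong for 0 of 1872 genes.

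The genes, lists and rules were chosen with earlier results of these data known. Named genes are the 7 members, genes overlapping their regions or lying beside them, and the 3 with the largest absolute score within 5 kb in each list. Crnde, Gm20554, Gm28516, Tert, Slc6a3, Alkbh5, Cidea, Ucp1, Tnfrsf9, Fabp4, Plin1, Pecam1, Ptprc, Msln, Meis2, Meis3, Pknox1, Tgif1, Tgif2 and Mkx were named outside this rule after their values were seen. An item of the TALE list, and the totals that include it, are not reported here. The alternatives were windows of 20 and 100 kb, a minimum absolute score of 100 and the region's centre in place of any overlap. No p-value was computed.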

Additional observations from a re-analysis of the deposited data

How the results depend on the processing

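The number of regions was 50 on chromosome 8 and 9 on chromosome 13. With only regions of absolute score 100 or more it was 20 and 3, and the negative share on chromosome 8 moved from 74.0% to 90.0%. With a window of 20 kb that share was 85.7%. The regions it left out were 4 of 10 negative at the chromosome 8 Irx genes and 3 of 5 at Fto. The lower counts follow from the construction, since fewer regions are counted. The negative shares rose because the regions left out were less often negative, and why they were was not tested. The counts stayed within 1.5 times with windows of 20 kb (35 and 8) and 100 kb (67 and 13), where the negative shares were 85.7% and 100%, and 70.1% and 84.6%. Using the region's centre changed neither cluster's values. By gene, the count moved by over 1.5 times for 5 of 7 genes with the score minimum, for 3 with 100 kb, for 1 with 20 kb and for 0 with the centre. The gene counts and the median scores under these settings were added after the data were seen. No paired analysis was possible because each group has 1 library. Unknown depth limits every value: no region can be given an error, and an absent region may be an uncovered one.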

Other observations

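Few genes elsewhere had as many regions as Irx5 with none of the other sign. Genes with regions of both signs, such as Prdm16, were left out however many they had. Likeness was measured as 15 or more regions within 50 kb, all of 1 sign, in this 1 comparison of 2 libraries, on chromosomes other than 8 and 13. Among the genes that met it, Rere, a nuclear receptor corepressor gene, had 17 negative regions (strongest -124), Pdzrn3 16 negative (strongest -82.7) and Iqschfp 16 negative (strongest -151). Zfhx4, a zinc finger homeobox gene, had 20 regions, all positive (strongest 234). Gene length was not matched.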
